A study of Mus musculus with 6 samples.

Results

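Thymic epithelium derives from the third pharyngeal pouch, and a small set of transcription factors patterns that pouch and keeps its epithelium thymic. The genes examined were 9 such factors: Hoxa3, Tbx1 and Eya1, which act in the pouch, the paired-box factors Pax1 and Pax9, the forkhead factor Foxn1, the p53 relative Trp63, and the epithelial ETS factors Ehf and Elf3. They were chosen by name, and each was followed through every array probe that the platform annotation assigns to its symbol. This gave 17 probes for 8 of the 9 genes, out of 46619 probes for 19406 named genes on the array. No probe carries the symbol Tbx1, so Tbx1 was not analysed here.

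As background, Foxn1 is the master regulator of thymic epithelial differentiation, and mice without it are the athymic nude mice. Hoxa3, Eya1, Pax1 and Pax9 act before or around the onset of Foxn1 in the pouch, and loss of any of them impairs the embryonic thymus. Trp63 encodes p63, which sustains the proliferative capacity of epithelial progenitors in thymus and skin. Ehf and Elf3 belong to the epithelium-specific branch of the ETS family.

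The cells were mTECs, medullary epithelial cells of the thymus sorted for abundant MHC class II, which show peripheral tissue proteins to developing T cells. Total RNA came from 3 Aire knockout and 3 wild-type C57Bl/6 samples and was hybridised to Illumina bead arrays in 1 colour. Aire is a nuclear regulator through which mTECs transcribe tissue-restricted genes. Knockout replicates 1 and 3 and wild-type replicate 2 were male, and the other 3 samples were female. Knockout replicate 1 and wild-type replicates 1 and 2 were on beadchip 1, and the other 3 samples on beadchip 2. By their date labels, wild-type replicates 1 and 2 are older than the other 4 samples. A fit with the date label as a covariate therefore sets the 3 knockout samples against wild-type replicate 3 alone. Beadchip 2 also holds wild-type replicate 3 as its only wild-type sample. No source used here gives the ages of the mice, how the Aire allele was made or how many mice a sample holds, so a p-value describes only the spread between these samples.

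All values are the deposited normalized log2 values, and a change is the knockout mean minus the wild-type mean on that scale. The brighter Aire probe had 10.36, 10.30 and 10.01 in knockout replicates 1 to 3, against 13.55, 13.66 and 13.40 in wild-type replicates 1 to 3, a change of -3.31 (SE 0.12, limma adjusted p = 4.59e-08). The background bound was 6.81 on every array, and testing required a signal over it on at least 3 of the 6 arrays. Of 13 mTEC markers, 12 were tested and above background on all 6 arrays, among them Krt5, Krt14, Cd80, H2-Aa and H2-Ab1, and Epcam has no named probe here. Arrays of 1 genotype correlated with r between 0.983 and 0.994 over the 19420 tested probes. The median change of all tested probes was 0.10. With scaling to housekeeping genes it was 0.30, and with cyclic loess between arrays -0.00086. Of the 7468 probes that passed, 4022 were higher and 3446 lower in knockout samples, against 7004 higher and 2226 lower with housekeeping scaling and 2341 higher and 4122 lower with cyclic loess.

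Of the 8 genes with a probe, 5 were measurable in these cells: Pax1, Pax9, Eya1, Trp63 and Elf3. Of these, 2 passed the test by their brightest probe, in opposite directions, with Pax1 lower and Pax9 higher in knockout mTECs. Eya1, Trp63 and Elf3 did not pass. Of all 11740 tested named genes 41.4% passed, 23.1% lower and 18.3% higher, so 2 of 5 is a share near the background. The median change was 0.046 over the 5 genes and 0.024 over all tested named genes. The groups did not overlap for 2 of the 5 genes, against 54.3% of all tested named genes. Of the 8 tested member probes 4 did not overlap, against 52.8% of all tested probes, and 2 passed, against 38.5%.

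Pax1, a paired-box factor of the pouch endoderm that remains active in thymic epithelium, fell in the knockout samples. Its brightest probe (3360253) had 11.03, 10.98 and 11.14 in knockout replicates 1 to 3, against 11.51, 11.55 and 11.53 in wild-type replicates 1 to 3. All 3 knockout values lay below all 3 wild-type values, and the wild-type values lay within a much narrower range. The group means were 11.05 ± 0.085 in knockout and 11.53 ± 0.019 in wild-type samples (SD, n = 3 each). The change was -0.48 (SE 0.095, 95% confidence interval -0.69 to -0.27, limma adjusted p = 0.00325), which is 1.39-fold lower. It was -0.50 within beadchip 1 and -0.47 within beadchip 2, and -0.54 in females and -0.46 in males.

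A second Pax1 probe (105290273) did not share this pattern. It is annotated to a cDNA clone, whereas the brightest probe is annotated to the RefSeq mRNA. It had 7.33, 7.40 and 7.12 in knockout samples, against 7.32, 7.03 and 7.11 in wild-type samples, so the groups overlapped. Its change was 0.13 (SE 0.12, interval -0.14 to 0.40, limma adjusted p = 0.412). Averaging both probes gave -0.18 for Pax1 (adjusted p = 0.131), which ended the call. With housekeeping scaling the brightest probe changed by -0.28 (adjusted p = 0.152).

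Pax9, the closest relative of Pax1 and likewise needed for the pouch, rose in the knockout samples. Its single probe (3850519) had 7.64, 7.68 and 7.32 in knockout replicates 1 to 3, against 6.97, 7.29 and 7.09 in wild-type replicates 1 to 3. The groups did not overlap, but knockout replicate 3 and wild-type replicate 2 lay close to each other. The means were 7.55 ± 0.20 in knockout and 7.11 ± 0.16 in wild-type samples (SD, n = 3 each), a change of 0.43 (SE 0.13, interval 0.14 to 0.73, limma adjusted p = 0.0254), or 1.35-fold higher. The change was 0.51 within beadchip 1 and 0.42 within beadchip 2, and 0.66 in females and 0.19 in males.

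The Pax9 call was the less stable of the pair. It held in 10 of 20 alternative settings, against 16 of 20 for the brightest Pax1 probe, and no setting turned either direction. Pax9 missed the threshold without knockout replicate 1 (adjusted p = 0.0957) or 2 (0.102), without wild-type replicate 1 (0.062) or 3 (0.0633), with sex as a covariate (0.0542), with cyclic loess (0.136) and with the date label as a covariate (0.132). When the median change of all tested probes was subtracted, Pax1 stood at -0.58 (adjusted p = 0.00105) and Pax9 at 0.33 (adjusted p = 0.075).

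**Figure D1:**
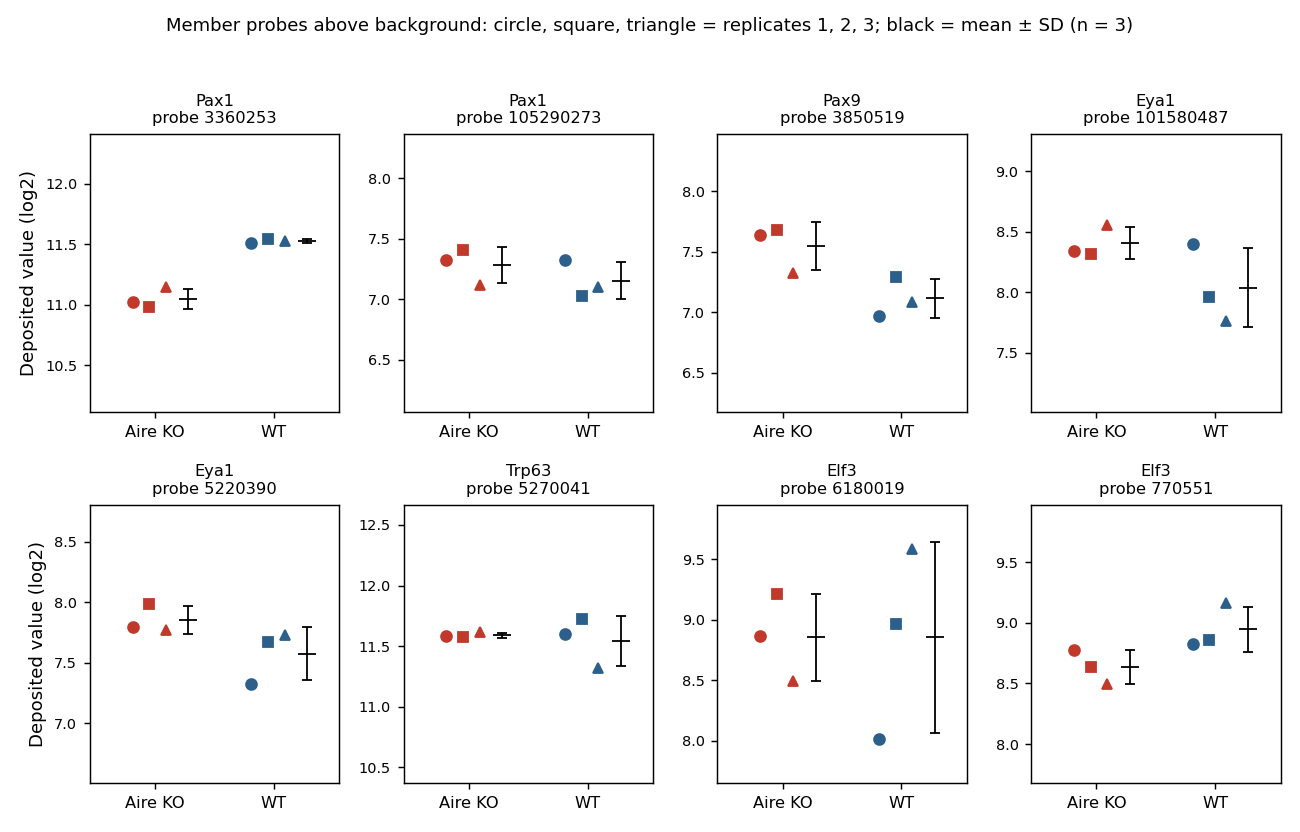
Deposited log2 values of the 8 tested probes on each array, with Aire knockout samples in red on the left and wild-type samples in blue on the right; circles, squares and triangles are replicates 1, 2 and 3, black marks are mean ± SD (n = 3), and every vertical axis spans the same range. Pax1 probe 3360253 was between 10.98 and 11.14 in knockout and between 11.51 and 11.55 in wild-type samples, while Elf3 probe 6180019 spread from 8.02 to 9.58 within wild type.

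The upstream windows of Pax1 and Pax9 are shown because these related genes were the members that passed, one in each direction. Each is the stretch of 250 bases before an annotated start site, 5′ to 3′ on the plus strand, from RefSeq on GRCm38.p6, whose table matched 6 of the 9 members. Capitals mark GACGC, a core motif bound by Foxn1, read on either strand.
Pax1 (chr2:147364744-147364993): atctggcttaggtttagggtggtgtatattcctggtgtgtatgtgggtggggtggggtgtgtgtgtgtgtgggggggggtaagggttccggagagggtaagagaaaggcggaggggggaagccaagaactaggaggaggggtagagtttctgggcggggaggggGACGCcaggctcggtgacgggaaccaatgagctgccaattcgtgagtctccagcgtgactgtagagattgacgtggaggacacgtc
Pax9 (chr12:56695221-56695470): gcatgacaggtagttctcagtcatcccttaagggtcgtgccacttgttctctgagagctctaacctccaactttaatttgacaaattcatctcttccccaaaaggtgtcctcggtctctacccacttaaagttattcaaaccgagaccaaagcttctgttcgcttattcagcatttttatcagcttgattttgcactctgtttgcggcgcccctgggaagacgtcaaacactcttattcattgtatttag
The Pax1 window holds 1 GACGC, beginning 86 bases before the start site, and the Pax9 window holds none on either strand. Among the other members with a window, Hoxa3 holds 2 and a Tbx1 window 1, while Foxn1 and Elf3 hold none. Among 32851 mouse promoter windows of the same length, 22.6% hold this motif. The Pax1 window also holds 2 matches to CCAAT and 1 to GGGCGG, which 33.8% and 32.7% of all windows hold, and Pax9 holds neither. No window of the pair holds TATAAA, which 12.4% of all windows hold, and none of these matches overlap each other. Pax1 had 58.8% G and C with 10 CpG pairs and Pax9 had 43.6% with 7, against medians of 52.4% and 6 over all windows. A match of letters is a description only.

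Foxn1 itself could not be followed. Its single probe (4730075) had 6.31, 6.60 and 6.50 in knockout replicates 1 to 3, against 5.94, 6.44 and 6.47 in wild-type replicates 1 to 3. All 6 values lay below the background bound and the groups overlapped, so neither a level nor a change of Foxn1 was detectable with this probe.

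Hoxa3, the homeobox gene that places the third pouch along the body axis, has 3 probes, and Ehf, an ETS factor of secretory epithelia, has 2. All 5 were below the bound on all 6 arrays. Together with Foxn1, 2 Eya1 probes and 1 Trp63 probe, 9 of the 17 probes were below it everywhere. Their values ranged from 5.71 to 6.71, and the differences of their group means from -0.10 to 0.31. None was tested, and such values bear only on these probes and not on whether the genes are transcribed. The other 8 probes were above the bound on all 6 arrays, so none of them entered through 1 genotype alone.

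**Figure D2:**
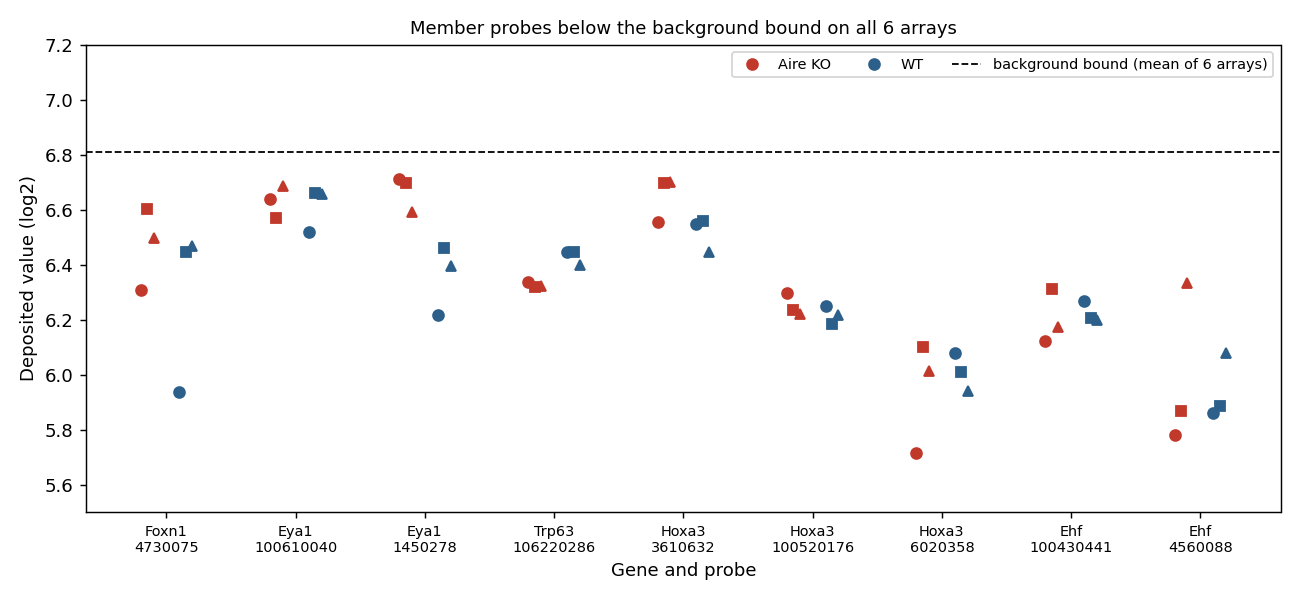
Deposited log2 values of the 9 member probes below background, with Aire knockout samples in red left of wild-type samples in blue, circles, squares and triangles for replicates 1, 2 and 3, and the background bound of 6.81 as a dashed line. Every point, including all 6 for Foxn1, lies under the line.

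Eya1, a transcriptional co-activator and phosphatase of the pouch, was measured by 2 of its 4 probes. The brighter (101580487) had 8.35, 8.32 and 8.56 in knockout samples, against 8.40, 7.96 and 7.76 in wild-type samples. Wild-type replicate 1 was as high as the knockout samples, and the change of 0.37 did not pass (SE 0.16, interval 0.012 to 0.72, limma adjusted p = 0.0933). Without that array it was 0.55 (limma adjusted p = 0.00651). With the date label as a covariate it was 0.65, which sets the knockout mean against wild-type replicate 3 alone, the lowest value of this probe.

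The other tested Eya1 probe (5220390) had 7.80, 7.99 and 7.77 in knockout samples, against 7.33, 7.68 and 7.73 in wild-type samples. Here wild-type replicate 1 was the lowest of the 6, and the groups did not overlap. The change was 0.28 (SE 0.13, interval -0.011 to 0.56, limma adjusted p = 0.114). The mean of both tested probes changed by 0.32 (adjusted p = 0.0141), and with housekeeping scaling the 2 probes changed by 0.56 (adjusted p = 0.00753) and 0.47 (adjusted p = 0.0212). Across the 6 arrays the 2 probes had r = -0.025, so they did not rank the samples alike.

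Trp63 did not pass. Its tested probe (5270041) had 11.58, 11.58 and 11.61 in knockout samples, against 11.60, 11.72 and 11.32 in wild-type samples. The knockout values fell inside the wild-type range, and the change was 0.046 (SE 0.12, interval -0.22 to 0.31, limma adjusted p = 0.777). This interval holds for the main values only, and over the alternative settings the change ran from -0.079 to 0.28.

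Elf3, which controls differentiation genes in simple and glandular epithelia, gave unequal readings from its 2 tested probes. Probe 770551 had 8.77, 8.64 and 8.49 in knockout samples, against 8.82, 8.86 and 9.16 in wild-type samples. The groups did not overlap, but the change of -0.31 did not pass (SE 0.12, interval -0.59 to -0.034, limma adjusted p = 0.0725). It was -0.067 within beadchip 1 and -0.60 within beadchip 2. It passed with cyclic loess (-0.43, adjusted p = 0.0282) and after subtraction of the median change of all tested probes (-0.41, adjusted p = 0.028). Without wild-type replicate 1 it also passed (-0.37, adjusted p = 0.0483). With the date label as a covariate it was -0.53, which, like the change within beadchip 2, rests on wild-type replicate 3 alone. With housekeeping scaling the change stood at -0.12.

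The slightly brighter Elf3 probe (6180019) had 8.86, 9.21 and 8.49 in knockout samples, against 8.02, 8.96 and 9.58 in wild-type samples. The wild-type values enclosed all knockout values, and the SD was 0.36 in knockout and 0.79 in wild-type samples (n = 3 each). The change was -0.00047 (SE 0.34, interval -0.75 to 0.75, limma adjusted p = 0.999), so this probe set only wide limits. Its change was 0.37 within beadchip 1 and -0.74 within beadchip 2.

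**Figure D3:**
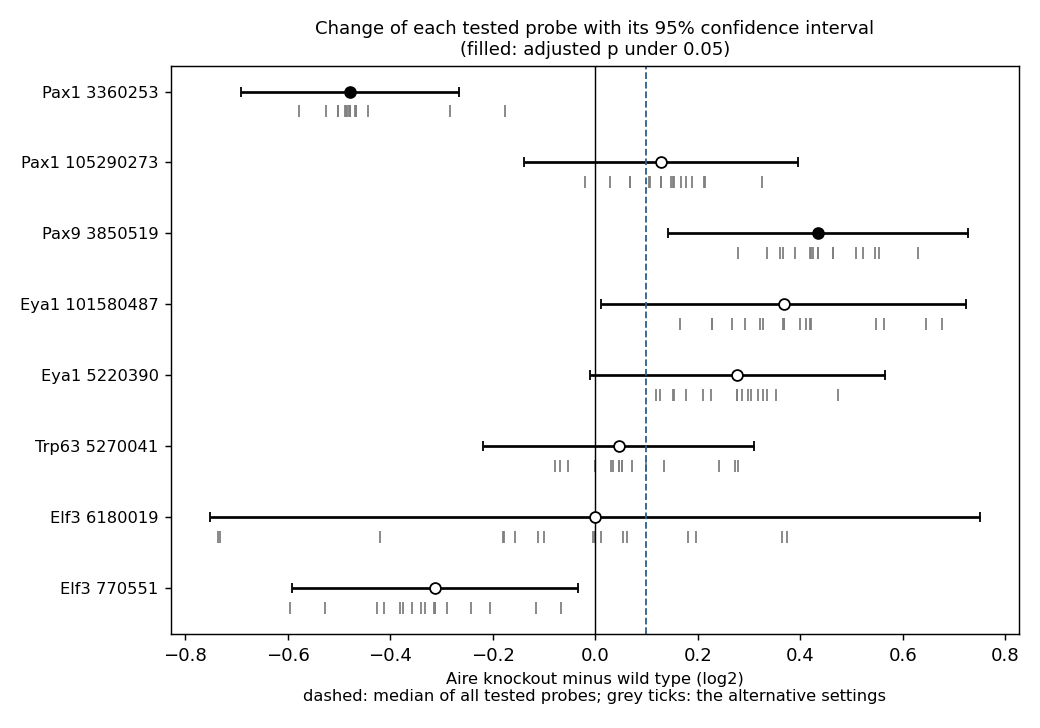
Change of each tested probe, Aire knockout minus wild type on the log2 scale, as points with 95% confidence intervals (filled where the adjusted p was under 0.05), with grey ticks for the values under the alternative settings and a dashed line at 0.10, the median change of all tested probes. Pax1 probe 3360253 at -0.48 and Pax9 at 0.43 are the filled points, and the interval of Elf3 probe 6180019 runs from -0.75 to 0.75.

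The genotype change did not differ detectably between the sexes for any tested member. Limma's test of the difference between females and males passed for 0 of the 5 genes, with 0 at an unadjusted p under 0.05 as well, and for 0 of the 19420 tested probes, of which 421 had an unadjusted p under 0.05. With 1 female knockout and 1 male wild-type sample, this test had little precision.

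The genes whose values ran most like Pax1 over the 6 arrays were Rapsn (r = 0.999), Gbp3 (r = 0.999) and Spp2 (r = 0.998). Gbp3 changed by -1.25, and Rapsn and Spp2 lay at or under background on all 3 knockout arrays. Those most like Pax9 were Sestd1 (r = 0.991), Pkn2 (r = 0.990) and Itsn2 (r = 0.989), with changes of 0.25, 0.24 and 0.37. These correlations are descriptions over 6 arrays that share the split into genotypes, and 2166 tested genes had r over 0.9 with Pax1 and 524 with Pax9.

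Genes known to depend on Foxn1 in thymic epithelium were examined beside it. Of 10 such genes 8 were tested, 3 rose, 2 fell and 3 did not pass (median change 0.014, and -0.037 with cyclic loess). The counts of this and the following lists are to be read against the 41.4% of all tested named genes that passed, 18.3% higher and 23.1% lower, and nothing particular to a list is drawn from them. Ccl25, a chemokine that draws thymocyte precursors, had 13.28, 13.43 and 13.11 in knockout samples, against 12.74, 12.92 and 12.98 in wild-type samples, a change of 0.39 (SE 0.12, limma adjusted p = 0.0244). A second Ccl25 probe changed by 1.02 (adjusted p = 0.00746). The surface protein gene Cd83 changed by 0.55 (SE 0.15, adjusted p = 0.0191) and Prss16, a protease of cortical epithelium, by 0.31 (SE 0.095, adjusted p = 0.0298). The Prss16 call held in only 7 of 20 alternative settings, and its second probe did not pass (0.23, limma adjusted p = 0.248). The Notch ligand gene Dll4 had 7.45, 7.42 and 7.49 in knockout samples, against 8.17, 7.99 and 7.82 in wild-type samples, a change of -0.55 (SE 0.11, adjusted p = 0.00377). With housekeeping scaling Dll4 stood at -0.35 (adjusted p = 0.0834). Fgfr2, the epithelial receptor for Fgf7 and Fgf10, changed by -0.70 on its brightest probe (SE 0.14, adjusted p = 0.00402) and by 0.32 on another (adjusted p = 0.0544).

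The changes in the Foxn1-dependent genes were sensitive to the arrays used. Without knockout replicate 2 none of the 3 rises passed. With the date label as a covariate no call of this list held, in a fit that rests on wild-type replicate 3 alone. Tbata, a gene of thymic epithelium, changed by -0.046 on its brightest probe (adjusted p = 0.75) and by 0.59 on another (adjusted p = 0.00295). Psmb11, the proteasome subunit of cortical epithelium, changed by 0.073 (adjusted p = 0.723).

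In the wider pharyngeal pouch network 10 of 18 genes were tested. By brightest probe 2 were higher (Fgf10 and Shh), 1 was lower and 7 did not pass. With the probes of a gene averaged 1 was higher and 2 were lower. By brightest probe 3 of 10 passed, against 41.4% of all tested named genes (median change -0.026, and 0.17 with housekeeping scaling). Fgf10, a mesenchymal growth factor for thymic epithelium, had 9.55, 9.64 and 9.43 in knockout samples, against 7.67, 7.80 and 7.63 in wild-type samples. The groups were far apart, and Fgf10 changed by 1.84 (SE 0.10, limma adjusted p = 7.08e-07) in the brightest probe and by 1.21 (adjusted p = 1.98e-05) in the other. Isl1, a LIM-homeobox factor of the pouch, had 10.13, 9.99 and 10.23 in knockout samples, against 10.89, 10.99 and 10.78 in wild-type samples, a change of -0.77 (SE 0.11, adjusted p = 0.000388). The probes of the signal gene Shh moved apart, by 0.49 (SE 0.10, adjusted p = 0.00409) for the brightest and by -1.20 (adjusted p = 1.85e-05) for the other, so no direction is given for Shh. Gata3, which shapes the parathyroid and thymus domains, changed by -0.29 (adjusted p = 0.0673). The probes of Fgf7, Bmp2 and Nog were not tested.

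Of 13 genes known to depend on p63, 9 were tested, 2 fell, 2 rose and 5 did not pass. That is 4 of 9 passing, a share near the 41.4% of all tested named genes (median change -0.085, and 0.11 with housekeeping scaling). Krt5, a keratin of basal epithelial cells, had 9.20, 8.66 and 9.93 in knockout samples, against 11.43, 10.99 and 10.86 in wild-type samples, a change of -1.83 (SE 0.28, limma adjusted p = 0.000659). Its partner keratin Krt14 changed by -0.70 (SE 0.13, adjusted p = 0.00199). The integrin gene Itga6 changed by 0.48 (SE 0.12, adjusted p = 0.0128) and Fermt1, which activates integrins, by 0.60 (SE 0.095, adjusted p = 0.000879). Itga6 missed the threshold without knockout replicate 2 and with the date label as a covariate, and 1 of its 3 other tested probes passed, also higher. The matrix receptor and hemidesmosome genes Itgb4 (-0.15) and Col17a1 (0.18) and the Notch ligand gene Jag2 (-0.085) did not pass by their brightest probes, while a second Col17a1 probe did (0.34, adjusted p = 0.0454).

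Among the ETS relatives of Ehf and Elf3, 14 of 21 were tested, 5 fell, 2 rose and 7 did not pass. So 7 of 14 passed, against 41.4% (median change 0.033, and -0.055 with cyclic loess). Of the 5 that fell, Elf5, Etv4 and Spdef met the filter only through wild type, so their falls are not independent of it. With all 6 arrays required above background, 10 were tested, 2 rose and 2 fell. Etv4 had 6.75, 6.96 and 6.73 in knockout samples, against 7.94, 7.84 and 7.93 in wild-type samples, a change of -1.09 (SE 0.10, limma adjusted p = 2.87e-05). Of its 3 knockout values 1 was above background, as was 1 for Spdef. Elf5, known from mammary and placental epithelium, was at or under background on all 3 knockout arrays and at least 1.30-fold lower there (limma adjusted p = 0.00079), where the fold sets the wild-type mean against the lowest signal above background. Spdef, a factor of goblet cells, changed by -0.69 (SE 0.12, adjusted p = 0.00185), and Spi1, a myeloid and B cell factor, by -0.45 (SE 0.091, adjusted p = 0.00363). The repressor gene Etv6 changed by 0.53 (SE 0.11, adjusted p = 0.00479). Elf1 (0.074), Elf2 (-0.0078) and Elf4 (-0.022) did not pass, unlike Elf5. The Spi1 call ended with housekeeping scaling (-0.26, adjusted p = 0.2) and with the date label as a covariate (adjusted p = 0.0599).

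Of 39 paralogs of the Pax, Eya, Tbx, Foxn, p53 and Hox members, 13 were tested, 3 rose, 3 fell and 7 did not pass. So 6 of 13 passed, against 41.4% (median change 0.11, and -0.054 with cyclic loess). Of the 3 that fell, Trp73 and Pax4 met the filter only through wild type, so their falls are not independent of it. With all 6 arrays required above background, 10 were tested, 2 rose and 1 fell. Tbx15 had 8.17, 8.66 and 8.41 in knockout samples, against 6.97, 7.23 and 7.26 in wild-type samples, a change of 1.26 (SE 0.14, limma adjusted p = 8.9e-05). Tbx3, a repressor of the same T-box family, changed by 0.66 (SE 0.10, adjusted p = 0.000672) and on a second probe by 0.54 (adjusted p = 0.0252). Trp73, the p53 relative closest to Trp63, was likewise at or under background on all 3 knockout arrays and at least 1.79-fold lower there (adjusted p = 4.92e-05). Its probe had 7.86, 7.40 and 7.68 in the 3 wild-type samples. Foxn4, a relative of Foxn1 known from retina and spinal cord, had 6.93, 6.90 and 6.89 in knockout samples, against 7.70, 7.69 and 7.63 in wild-type samples, a change of -0.76 (SE 0.091, adjusted p = 0.000136). Eya2 (0.24), Eya3 (0.30) and Eya4 (0.060), the relatives of Eya1, did not pass. No other Hoxa gene was tested, and Hoxd3, a relative of Hoxa3, did not pass (-0.087). Pax4 was at or under background on all 3 knockout arrays and at least 1.09-fold lower there (limma adjusted p = 0.00131). Pax6 did not pass (-0.066).

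Other regulators of thymic epithelium were tested in 11 of 14 cases, with 3 higher, 2 lower and 6 not passing, so 5 of 11 passed, against 41.4%. The median change was 0.090, against 0.29 with housekeeping scaling and -0.0096 after subtraction of the median change of all probes. With housekeeping scaling 4 were higher and 0 lower (limma). Irf8, an interferon regulatory factor, had 11.76, 11.70 and 11.69 in knockout samples, against 10.87, 10.93 and 10.74 in wild-type samples, a change of 0.87 (SE 0.097, limma adjusted p = 8.86e-05). The grainyhead factors moved apart, with Grhl3 at 0.52 (SE 0.14, adjusted p = 0.0164) and Grhl2 at -0.47 (SE 0.11, adjusted p = 0.00893), and Klf4, a differentiation factor of epithelia, changed by -0.60 (SE 0.14, adjusted p = 0.00832). The calls of Klf4 and Grhl2 ended with housekeeping scaling, and that of Grhl3 with cyclic loess or without knockout replicate 2. With the date label as a covariate Grhl2 and Grhl3 did not pass either. Of the 2 other Klf4 probes, 1 passed (-0.53, adjusted p = 0.0218) and 1 did not (-0.088, adjusted p = 0.733). Fezf2, the regulator of a separate set of tissue antigens in mTECs, changed by 0.090 (SE 0.13, adjusted p = 0.609).

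**Figure D4:**
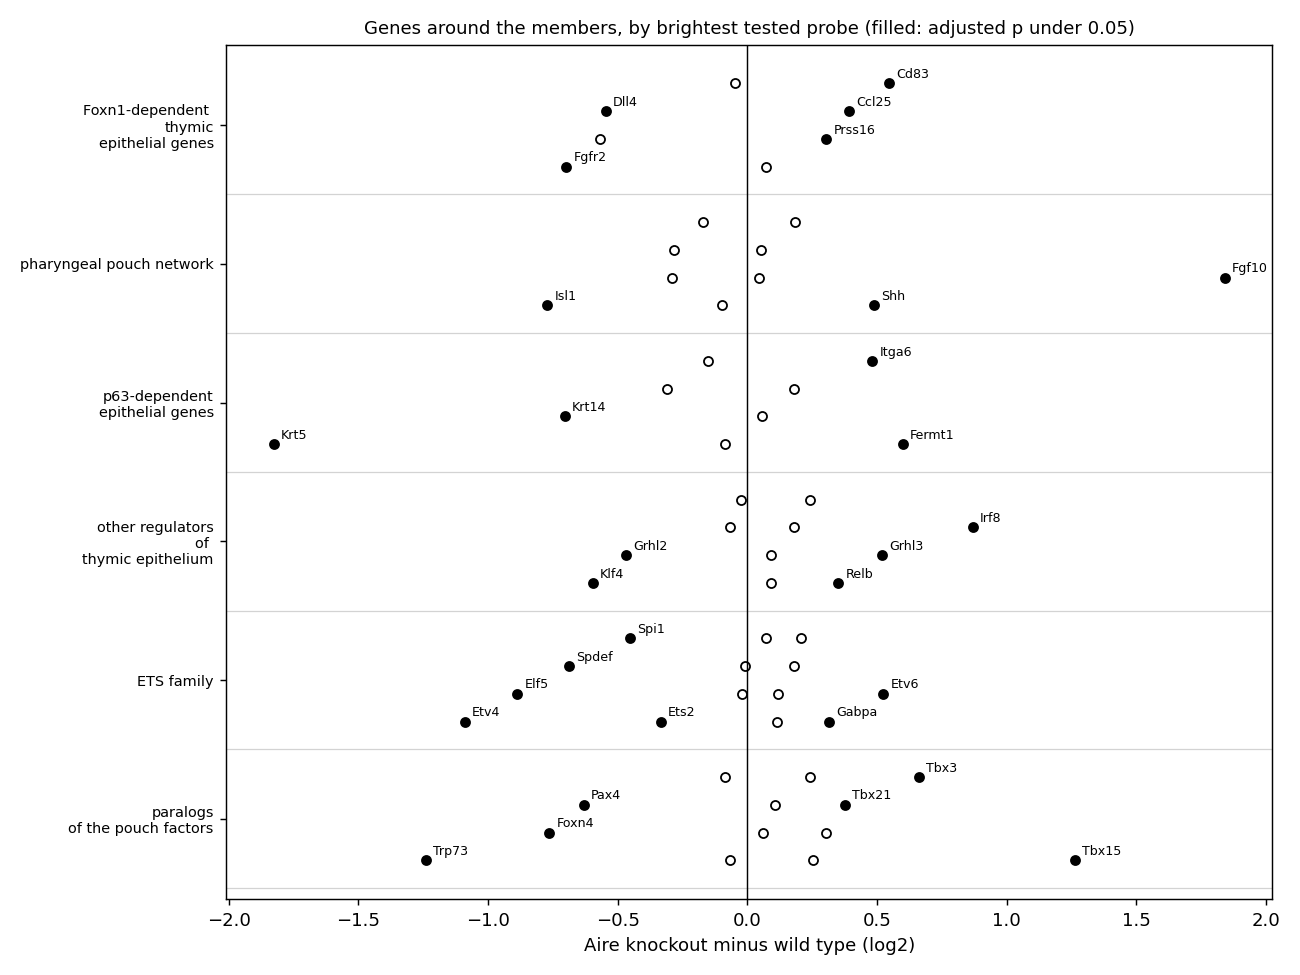
Change of each tested gene in 6 lists around the members, Aire knockout minus wild type on the log2 scale by brightest tested probe, with filled and named points where the adjusted p was under 0.05. Each list has filled points on both sides of 0, from Krt5 at -1.83 to Fgf10 at 1.84.

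Marker lists of mTECs and of other cells were measured in the same samples. In bulk RNA, fewer cells of a type and less RNA per cell cannot be told apart. The tested mTEC markers summed to between 16.14 and 16.25 in knockout samples and between 16.46 and 16.47 in wild-type samples, with no overlap. Of the 12, 4 were lower (Krt5 at -1.83, Ly6d at -1.10, Krt14 at -0.70 and Ccl21a at -0.52). H2-Aa at 0.45 and Tnfrsf11a at 0.51 were higher. The other 6, Cd80, Cd86, H2-Ab1, Cldn3, Cldn4 and Cd40, did not pass by their brightest probes. A second Cd86 probe did pass, higher in knockout samples (0.66, limma adjusted p = 0.00233). Ccl21a, Krt14 and Ly6d were among the brightest, so the sum is not read as an amount of mature mTECs. The counts of all marker lists are to be read against the 41.4% of all tested named genes that passed. Groups did not overlap for 54.3% of those genes. Thymocyte markers summed to between 12.30 and 12.61 in knockout and between 12.49 and 13.06 in wild-type samples, with 0 of 7 tested markers higher and 2 lower, and Cd4, Rag1 and Rag2 were not tested. Cortical epithelium markers summed to between 15.54 and 15.63 in knockout and between 15.34 and 15.55 in wild-type samples, with 3 of 9 higher (Ccl25, Prss16 and Ly75) and 1 lower (Dll4). Fibroblast markers summed to between 12.45 and 12.51 in knockout and between 11.30 and 11.73 in wild-type samples. Most of this sum was Dcn, with means of 12.36 in knockout and 11.19 in wild-type samples. Dcn was higher (1.17) and Col1a1 lower (-1.31), while Pdgfra and Pdgfrb did not pass and Col1a2, Col3a1 and Lum were not tested. Of the dendritic cell and macrophage markers 1 of 5 was higher and 2 lower, and of the B cell markers 2 of 3 were higher and 1 lower. Adgre1, a macrophage marker that was lower, met the filter only through wild type. The lower B cell marker, Cd79a, had a knockout mean of 6.24, under the background bound. Endothelial markers were higher in 2 of 5 cases and lower in 1. These sums are log2 of the summed antilog values of the tested markers, and their part in the changes of Pax1 and Pax9 was not tested. Pth, the hormone of the parathyroid, which arises from the same pouch, had 9.05, 6.16 and 9.61 in knockout samples, against 9.03, 9.31 and 9.33 in wild-type samples. Knockout replicate 2 alone was at background for Pth, and the change of -0.96 did not pass (SE 0.70, limma adjusted p = 0.298).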

How the data were processed

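Illumina bead arrays in 1 colour measured total RNA of 6 samples. The values are log2 and normalized as the authors deposited them. BeadStudio and lumi are the tools listed, without versions, per the submitters' processing notes. The background correction, normalization method and build were not given in the sources used here. A remaining background in the values compresses the changes of dim genes. A further 24 value columns, detection p-values included, match no sample label and were not used.

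Background was the mode of each array's values plus 3 times the spread below the mode. Probes above it on at least 3 arrays entered limma 3.58.1 (R 4.3.3), where lmFit and eBayes fitted genotype alone. P-values are two-sided and Benjamini-Hochberg adjusted across all 19420 such probes, with 0.05 as the threshold. A gene stands for its brightest tested probe. Of all probes 32782 have 1 symbol, 55 several and 13782 none, and only the first kind was named. The fit was tested on simulated data. The number of arrays limits the precision.

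The members and gene lists were chosen with earlier results of these data known, and no list test was made. The text names every member, Aire, up to 4 passing genes of each list with the largest changes, close relatives or targets of a member as values, and the 3 genes most correlated with each member that passed. Names outside this rule were chosen after their values were seen. Alternatives were cyclic loess, scaling to 10 tested housekeeping genes, normexp on antilog values (offset 16), other filters, beadchip, sex, date label or replicate number as a term, another variance model, averaged probes and leaving out each array. Subtraction of the median change and single beadchips were chosen after seeing the data.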

Additional observations from a re-analysis of the deposited data

How the results depend on the processing

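Of 20 alternatives, 16 kept the call of Pax1 probe 3360253 and 10 that of Pax9, with their directions kept in all 20. Over all 20, calls lost included, the change ran from -0.58 to -0.18 for Pax1 and from 0.28 to 0.63 for Pax9. The value of -0.18 is that of both Pax1 probes averaged. The count of members passing, 2 in the main values, was 1 with cyclic loess, with sex as a covariate and after subtraction of the median change, and 0 within beadchip 1 and within beadchip 2 (limma, where 1 and 2 had an unadjusted p under 0.05), fits with 3 arrays each. A count of 2 did not always hold the same genes: with housekeeping scaling and with averaged probes it was Pax9 and Eya1, both higher, and with the date label or without wild-type replicate 1 it was Pax1, lower, and Eya1, higher. Leaving out each array gave 1 to 2. With the replicate number as a block, Pax1 had an adjusted p of 0.00733 and Pax9 of 0.0194, and 7415 probes passed. Deviations of same-numbered samples correlated at 0.20, -0.060 and -0.016, so the numbers were not taken as pairs, and the block changed no call of a member. All probes passing numbered 3895 with the date label as a covariate, 1982 within beadchip 1 and 2611 within beadchip 2, against 7468.

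Of the 8 tested member probes, 3 changed direction in some setting, and these 3 passed in none. Pax1 probe 105290273 stood at -0.019 with cyclic loess. Trp63 stood at -0.0011 with sex as a covariate, -0.054 after subtraction of the median change, -0.079 within beadchip 1 and -0.068 to 0.13 with single arrays left out. Elf3 probe 6180019 stood at 0.20 with housekeeping scaling, 0.011 with normexp, 0.061 with sex as a covariate, 0.37 within beadchip 1 and -0.42 to 0.36 with single arrays left out. Among the listed genes Shh, which passed at 0.49, passed at -0.36 (adjusted p = 0.0122) with its probes averaged, since they moved apart. The other causes were not tested.

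Foxn1-dependent genes passing, 5 in the main values, were 3 with beadchip as a block and after subtraction of the median change, 0 with the date label as a covariate, 1 and 0 within beadchips 1 and 2 (3 unadjusted in limma on beadchip 2), and 2 to 5 with single arrays left out (2 without knockout replicate 2, and 3 without knockout replicate 1). Pouch network genes passing, 3 in the main values, were 5 with cyclic loess, after subtraction of the median change and without knockout replicate 3, 1 within each beadchip, and 3 to 5 with single arrays left out. The other regulators, 5 in the main values, were 2 with the date label, 1 within each beadchip, and 3 to 5 with single arrays left out (3 without knockout replicate 2). ETS genes, 7 in the main values, were 4 when required above background on all 6 arrays and with the date label, and 1 and 2 within beadchips 1 and 2. Paralogs, 6 in the main values, were 3 with that stricter filter and 2 within beadchip 1. The p63-dependent genes, 4 in the main values, were 1 and 0 within beadchips 1 and 2 (5 unadjusted in limma on beadchip 2). A stricter filter tests fewer genes and leaves out those that met the main filter through 1 genotype alone. A single beadchip holds 3 arrays, and no other cause was tested.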
